A study of Mus musculus with 20 samples.

Results

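The 84 genes described here code for nuclear-encoded subunits of oxidative phosphorylation, and they were followed through ribosome-bound RNA and whole lysate of mouse cortex. They are the protein-coding genes of the count table whose symbol begins with Ndufa, Ndufb, Ndufc, Ndufs, Ndufv, Cox4 to Cox8, Uqcr or Atp5, together with Sdha, Sdhb, Sdhc and Sdhd, out of the table's 25317 rows, 24873 of which could be given a gene name. Pseudogenes and the Ndufaf assembly factors were not members. Complex I holds 36 members, complex II holds 4, complex III holds 8, complex IV holds 19 and complex V holds 17. Ndufa4 and Ndufa4l2 were counted with complex IV, in which Ndufa4 is a subunit despite its name.

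The mice were C57BL/6, 3 months old, and either wild type or carrying a heterozygous Foxp2 deletion, which the series title places in the cortex. How the deletion was made and which part of the gene it removes are not given in the sources used here. Cortical hemispheres of 1 animal were lysed, ribosomes carrying a GFP tag were captured with anti-GFP serum (bacTRAP, the IP libraries), and part of the same lysate had been set aside before the capture (the Input libraries). The promoter that drives the tag and the cells that carry it are likewise not given, and a capture from animals without the tag was not analysed here. IP and Input were compared in 5 wild-type animals (wt734, wt736, wt785, wtBT13, wtBT14) and 3 heterozygotes (het729, het786, hetBT13). Another 4 heterozygous Input libraries, titled IX or IXX, come from het730 and hetBT14, which have no IP library, and they entered only an alternative.

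Oxidative phosphorylation takes place in the inner mitochondrial membrane. Complex I oxidises NADH, complex II oxidises succinate, complexes III and IV pass the electrons through coenzyme Q and cytochrome c to oxygen, and complex V, the ATP synthase, uses the proton gradient that complexes I, III and IV build. Some central subunits are encoded on mitochondrial DNA and translated inside the organelle, whereas the members here are transcribed in the nucleus, translated on cytosolic ribosomes and imported. In cortex this machinery supplies most of the ATP that neurons spend on ion pumping and synaptic transmission.

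Genes of this family are known for promoters without a TATA box that hold sites for NRF1, for the ETS factor GABPA (also called NRF2) and for YY1. RefSeq promoters of the GRCm38.p6 assembly, 250 bases before to 50 after the start, were found for 69 of the 84 members, 2 of them through an older symbol, which gave 74 promoters, and 21189 promoters of other protein-coding genes were searched in the same way on both strands. The NRF1 letters GCGCANGCG were in 28.4% of member promoters (21 of 74) and in 8.51% of the others. The ETS letters CCGGAAG were in 21.6% of member promoters and 11.5% of the others, and the YY1 letters AAGATGG in 14.9% and 6.21%. Of the 74, 40 held at least 1 of these 3 motifs. The SP1 letters GGGCGG, the CCAAT box letters CCAAT and the TATA box letters TATAAA were in 40.5%, 41.9% and 10.8% of member promoters and in 46.2%, 38.2% and 12.6% of the others, and the CRE letters TGACGTCA in 5.41% and 2.22%. None of these strings contains another of them, although matches may share bases at their ends. These are counts of letters, not of bound sites.

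A promoter of 1 member of each complex is printed as an example, from 150 bases before to 30 after the RefSeq start. Every NRF1, ETS and YY1 match on either strand is in capitals. The 5 promoters were picked among those that hold a match, as 40 of the 74 member promoters did. Each is written 5′ to 3′ along the transcribed strand, which is the minus strand in all 5. Ndufs6 (chr13:73328453-73328632) codes for an accessory subunit of complex I, Sdhd (chr9:50603820-50603999) for a membrane anchor of complex II, Uqcr11 (chr10:80406792-80406971) for a small subunit of complex III, Cox6a1 (chr5:115348929-115349108) for the widely expressed isoform of a complex IV subunit, and Atp5j (chr16:84834947-84835126) for subunit F6 in the stalk of the ATP synthase.
Ndufs6: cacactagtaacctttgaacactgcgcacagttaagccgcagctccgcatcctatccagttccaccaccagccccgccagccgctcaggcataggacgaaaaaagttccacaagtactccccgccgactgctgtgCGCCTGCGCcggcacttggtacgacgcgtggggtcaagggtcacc
Sdhd: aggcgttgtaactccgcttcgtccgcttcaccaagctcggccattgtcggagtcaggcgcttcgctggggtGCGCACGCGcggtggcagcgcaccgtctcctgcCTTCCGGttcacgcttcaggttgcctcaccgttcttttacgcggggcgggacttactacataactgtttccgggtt
Uqcr11: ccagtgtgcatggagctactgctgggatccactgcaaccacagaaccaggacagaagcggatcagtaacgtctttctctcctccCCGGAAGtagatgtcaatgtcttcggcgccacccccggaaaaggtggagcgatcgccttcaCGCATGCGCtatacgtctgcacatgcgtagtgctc
Cox6a1: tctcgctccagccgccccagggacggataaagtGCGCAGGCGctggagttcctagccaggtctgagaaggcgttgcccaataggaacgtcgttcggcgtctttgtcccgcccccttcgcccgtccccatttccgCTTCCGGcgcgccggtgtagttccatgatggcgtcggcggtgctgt
Atp5j: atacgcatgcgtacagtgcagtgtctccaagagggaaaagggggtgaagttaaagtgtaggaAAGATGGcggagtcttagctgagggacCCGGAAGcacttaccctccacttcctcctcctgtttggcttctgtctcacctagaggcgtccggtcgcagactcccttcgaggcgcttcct
In Ndufs6 the capitals are an NRF1 match 15 bases before the start. Sdhd holds an NRF1 match 79 bases before it and an ETS match at 46 bases. Uqcr11 holds an ETS match at 66 bases and an NRF1 match at 5 bases, and Cox6a1 an NRF1 match at 117 bases and an ETS match at 16 bases. In Atp5j a YY1 match lies 88 bases and an ETS match 61 bases before the start. These distances are from the start to the first base of the match as printed. The other promoter found for Atp5j held no NRF1, ETS or YY1 match.

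The 16 libraries compared held 2782934 to 5754169 counts each. Foxp2 ran from 24.4 to 31.4 counts per 1000000 (CPM, scaled by TMM, a factor that aligns the bulk of genes between libraries) in the heterozygous Input libraries and from 38.4 to 65.5 in wild-type Input, so those groups did not overlap, but in IP they did (32.4 to 56.9 and 46.3 to 105.5), and the edgeR adjusted p was 0.501 in Input and 0.981 in IP. Of 4 layer 6 corticothalamic neuron markers, 2 were called higher in wild-type IP than in Input, Ntsr1 by 3.09 and Tle4 by 1.23 (log2). The glutamatergic markers were mixed, with 4 of 5 called higher and Camk2a called lower, at -0.26 (edgeR adjusted p = 0.0461). All 6 inhibitory neuron markers were called lower in IP, with a median log2 change of -1.49. So were 4 of 5 astrocyte markers (median -1.02) and 4 of 5 oligodendrocyte markers (median -2.15). The remaining astrocyte marker, Aldh1l1, was called higher (0.72), and the remaining oligodendrocyte marker, Mag, was not called (-0.04). Striatal markers were present in Input, where 3 of them summed to 288.9 to 379.9 CPM in wild type. In tissue lysate, fewer cells of a type and less RNA per cell cannot be told apart.

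The share of counts taken by the subunit mRNAs was lower in IP than in Input in each of the 8 animals. In wild-type Input the 84 members took 2.35% (wt734), 2.36% (wt736), 2.41% (wt785), 1.96% (wtBT13) and 2.08% (wtBT14) of all counts. The same animals' IP libraries gave 2.12%, 2.06%, 2.07%, 1.86% and 1.88%. Every wild-type animal was lower in IP than in its own Input, while the groups overlapped because both BT-named Input libraries were low. Heterozygous Input gave 2.57% in het729, 2.55% in het786 and 2.18% in hetBT13, and their IP libraries 2.30%, 1.96% and 2.08%. By complex the wild-type means differed most for complex IV, at 0.448% ± 0.0767 of counts in Input and 0.331% ± 0.0468 in IP (SD, n = 5), whereas complex I stood at 0.742% ± 0.0655 and 0.745% ± 0.0247. These shares are of raw library totals, a scale on which the middle of all genes itself lies higher in IP.

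**Figure D1:**
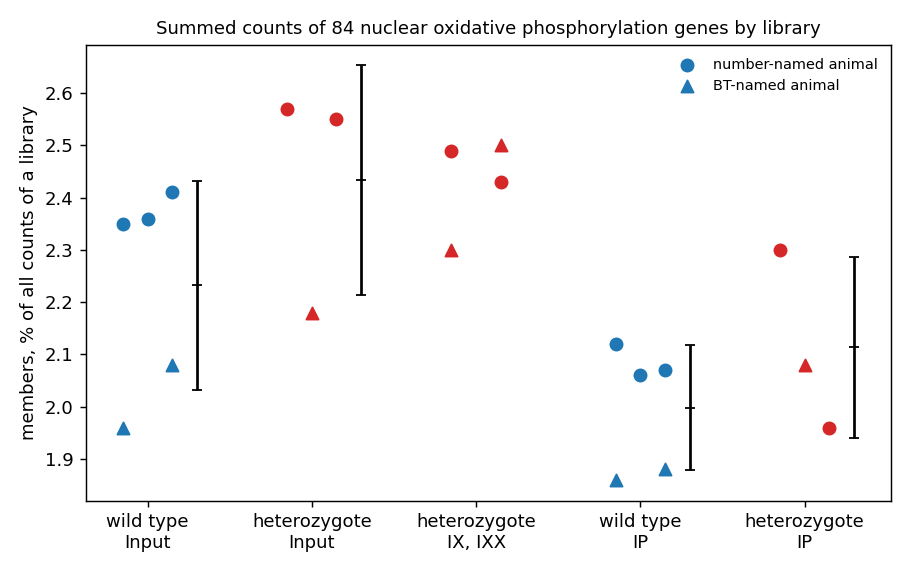
Share of all counts taken by the 84 members (y axis, percent) in each library, by group, with number-named animals as circles, BT-named animals as triangles, and the mean ± SD beside each compared group. The wild-type Input libraries lie between 1.96% and 2.41%, the wild-type IP libraries between 1.86% and 2.12%, and the lowest values of both belong to BT-named animals.

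The first comparison asked which subunit mRNAs were more or less abundant on the captured ribosomes than in the lysate they came from. In wild type, 59 of the 79 members tested were called lower in IP and 2 were called higher, at an edgeR quasi-likelihood adjusted p below 0.05 over all 15145 genes tested. Over all genes, 25.2% were called lower and 28.1% higher. The members' median was a log2 change of -0.37, or 0.775-fold, where that of all genes tested was 0.03, and 74 of 79 members lay below 0. By CPM, 58 members were lower in IP in 8 of 8 animals. The same count over all genes is not given here, so the 58 cannot be set against a background. Scaling by library totals alone moved the median of all genes from 0.03 to 0.26. On that scale 23 members lay above 0, 32 were called lower and 7 higher. Over all genes, 2407 of 15145 were then called lower (3813 with TMM). The split of all calls moved from 52.7% higher to 72.7% higher. Relative to the median of all genes, the members stood at -0.40 under both scalings. Rescaling shifts all genes nearly alike, so that distance was bound to stay. It was -0.28 with DESeq2 and -0.35 with no filter, where 24857 genes were tested.

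The heterozygotes gave a like picture. There 57 of 79 members were called lower and 2 higher, against 21.7% of all genes called lower and 22.2% called higher, with a members' median of -0.39 and a median of all genes of 0.04. Both genotypes called 53 of the members lower, a count likewise not given here for all genes. Without het786 the heterozygous count was 38, beside 2384 of 15057 genes called lower in that fit (3285 of 15145 with all animals). With library totals it was 30, beside 1918 of 15145 genes, with 5 members called higher and 21 above 0. On that last scale the median of all genes was 0.30, and the split of all calls moved from 50.5% to 75.0% higher. For the same reason as in wild type, the members stood at -0.43 relative to the median of all genes on both scales. That distance was -0.26 with DESeq2 and -0.36 with no filter. Of the 59 wild-type calls, 32 were called lower in every one of 14 alternatives, and so were 30 of the 57 heterozygous calls. These counts are not given here for all genes either. The members were set by a rule on names, chosen with earlier results of these data known. They also share libraries and scaling, so the counts describe the list and are not a test of it.

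**Figure D2:**
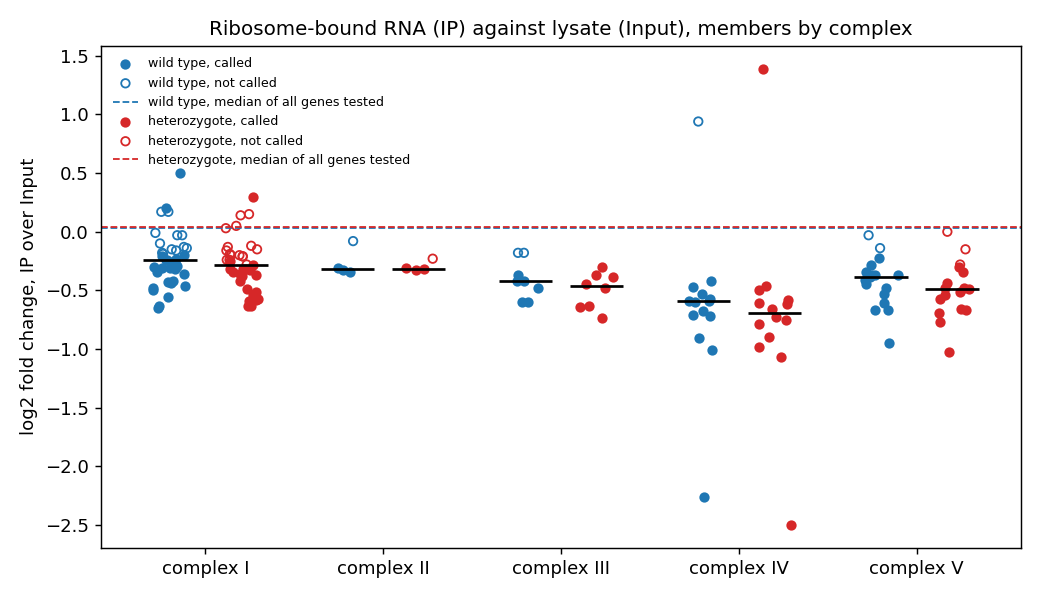
Log2 fold change of IP over Input (y axis) for each tested member by complex, in wild type (blue) and heterozygotes (red), with filled points called at an adjusted p below 0.05, black bars at complex medians and dashed lines at the median of all genes tested. Most points lie below 0, complex IV has the lowest medians (-0.59 and -0.70), and Cox6a2 is the lowest point in both genotypes.

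Complex I, the NADH dehydrogenase, was the most mixed. In wild type, 22 of its 36 members were called lower and 2 higher, with a median of -0.24. Among the core subunits, which form the electron path from NADH to coenzyme Q, 3 were called lower (Ndufv2 at -0.24, Ndufs7 at -0.23 and Ndufs8 at -0.20), Ndufs1 was called higher, and Ndufs3 (-0.10) and Ndufv1 (-0.03) were not called. The other subunits of the complex had 19 called lower, 1 called higher and a median of -0.30. The lowest were Ndufc1, a small membrane subunit, at -0.65 (SE 0.08, edgeR adjusted p = 1.04e-06), and Ndufa5, of the matrix arm, at -0.63. In the heterozygotes 19 of 36 were called lower, the complex median was -0.28, and of the core subunits only Ndufs7 was called lower, at -0.36.

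Ndufs1, the largest subunit of complex I and a holder of iron-sulphur clusters in its matrix arm, went the other way. Its CPM in wild-type Input were 186.8 (wt734), 192.9 (wt736), 206.3 (wt785), 235.6 (wtBT13) and 214.8 (wtBT14), and in IP 286.4, 251.8, 300.7, 322.9 and 301.1. All 5 IP libraries lay above all 5 Input libraries. The log2 change was 0.50 (SE 0.07, edgeR adjusted p = 5.6e-06), and it was called higher in all 14 alternatives. In heterozygotes Input gave 199.3 (het729), 242.4 (het786) and 260.3 (hetBT13) and IP 237.8, 304.0 and 322.2, so each animal was higher in IP although the groups overlapped. That log2 change was 0.30 (SE 0.09, adjusted p = 0.013), called in 10 of 14 alternatives. The difference between the genotypes was -0.20 (SE 0.12) and was not called (edgeR adjusted p = 1).

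Ndufs4, an accessory subunit of the matrix arm whose loss in mice gives a Leigh-like disease, was the other member called higher in wild type. Its Input values were 156.9, 158.7, 153.8, 121.5 and 124.6 CPM in wt734, wt736, wt785, wtBT13 and wtBT14, and its IP values 170.2, 171.4, 163.8, 156.4 and 158.3. Each animal was higher in IP, and the groups overlapped. The log2 change of 0.20 (SE 0.07, adjusted p = 0.025) was called in 9 of 14 alternatives, with an adjusted p of up to 0.245, and in heterozygotes it was 0.14 and not called. Ndufa9 and Ndufb5 also lay above 0 in wild type, both at 0.17, without being called. Ndufv3, Ndufv1 and Ndufa10, at -0.01 to -0.03 in wild type, were the members of complex I nearest to 0.

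Complex II, succinate dehydrogenase, is shared with the tricarboxylic acid cycle and has no subunit encoded on mitochondrial DNA. Its iron-sulphur subunit Sdhb and its membrane anchors Sdhc and Sdhd were called lower in both genotypes, with log2 changes of -0.34, -0.33 and -0.31 in wild type and -0.32, -0.31 and -0.33 in heterozygotes. For Sdhb, Input was 422.7, 433.0, 446.6, 437.7 and 435.3 CPM in wild type and IP 378.0, 356.7, 337.5, 331.5 and 320.4. Every Input library lay above every IP library. Sdha, the flavoprotein that oxidises succinate, was not called, at -0.08 in wild type (SE 0.09, adjusted p = 0.436) and -0.23 in heterozygotes (adjusted p = 0.105).

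In complex III, the cytochrome bc1 complex, 6 of 8 members were called lower in wild type and 8 of 8 in heterozygotes, with medians of -0.42 and -0.47. The lowest were the small subunit Uqcr10 (-0.60 in wild type, -0.64 in heterozygotes) and the hinge protein Uqcrh, which binds near cytochrome c1 (-0.60 and -0.74). Uqcrfs1, the Rieske iron-sulphur protein, was at -0.48 (SE 0.08, adjusted p = 3.77e-05) and -0.63. Its wild-type CPM fell from 343.7, 349.4, 379.1, 352.8 and 368.2 in Input to 264.7, 257.5, 249.0, 240.0 and 272.0 in IP, without overlap. The core proteins Uqcrc1 and Uqcrc2 had the smallest changes, both -0.18 and not called in wild type, and -0.30 and -0.37 and called in heterozygotes. Neither difference between the genotypes was called.

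Complex IV, cytochrome c oxidase, had the lowest median of the 5 complexes in both genotypes. Of its 14 tested members, 13 were called lower in each genotype, with medians of -0.59 and -0.70. Cox8a, a small membrane subunit, had the highest level per kilobase of transcript of all 84 members, 1463.6 CPM per kb in Input and 775.6 in IP (means of 8 libraries). Its CPM in wild-type Input were 890.5 (wt734), 888.5 (wt736), 834.2 (wt785), 568.6 (wtBT13) and 638.5 (wtBT14), and in IP 522.3, 475.0, 493.7, 310.7 and 268.5. No wild-type IP library reached the lowest wild-type Input library, and in both fractions the BT-named animals were the lowest. The log2 change was -0.91 (SE 0.09, adjusted p = 5.62e-08), or 53.3% of Input. Heterozygous Input was 937.3 (het729), 930.7 (het786) and 751.2 (hetBT13) and IP 569.7, 412.1 and 360.7, a change of -0.98.

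The regulatory subunit Cox4i1 (-0.60 in wild type), the matrix-facing Cox5a (-0.53) and Cox5b (-0.47), and the small subunits Cox6c (-0.68), Cox7b (-0.57) and Cox7c (-0.72) were called lower in both genotypes, and so was Ndufa4 (-0.59). Cox7a2l had the smallest adjusted p of the members. It stood at 239.9, 254.3, 258.6, 209.0 and 226.0 CPM in wild-type Input and at 121.0, 118.3, 118.1, 115.5 and 116.6 in IP. The 5 IP values were close to each other, and all lay below the lowest Input value. The log2 change was -1.01 (SE 0.08, adjusted p = 8.01e-10) in wild type and -1.07 in heterozygotes. A stretch of 336 bases of its transcript, 31.2%, occurs at 97% identity or more in 1 other gene, a pseudogene.

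Several complex IV subunits exist as a widely expressed gene and a paralog known from heart and skeletal muscle, lung or testis, and the cortex libraries held mostly the former. Per kilobase, Cox6a1 had 969.1 ± 150.6 CPM in Input and the muscle isoform Cox6a2 had 19.1 ± 5.16 (SD, n = 8). Cox4i1 had 1137.3 CPM per kb in Input against 2.21 for Cox4i2, Cox6b1 had 896.6 against 3.70 for Cox6b2, and Cox8a had 1463.6 against 0.447 for the muscle isoform Cox8b. Cox4i2, Cox6b2, Cox7b2, Cox8b and Ndufa4l2 failed the filter on low counts and were not tested. Over the 5 wild-type Input libraries they had 30, 22, 12, 2 and 31 counts in all, and over the 5 wild-type IP libraries 13, 16, 21, 0 and 26. For Cox8b, at 2 counts and 0, no fold is given.

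**Figure D3:**
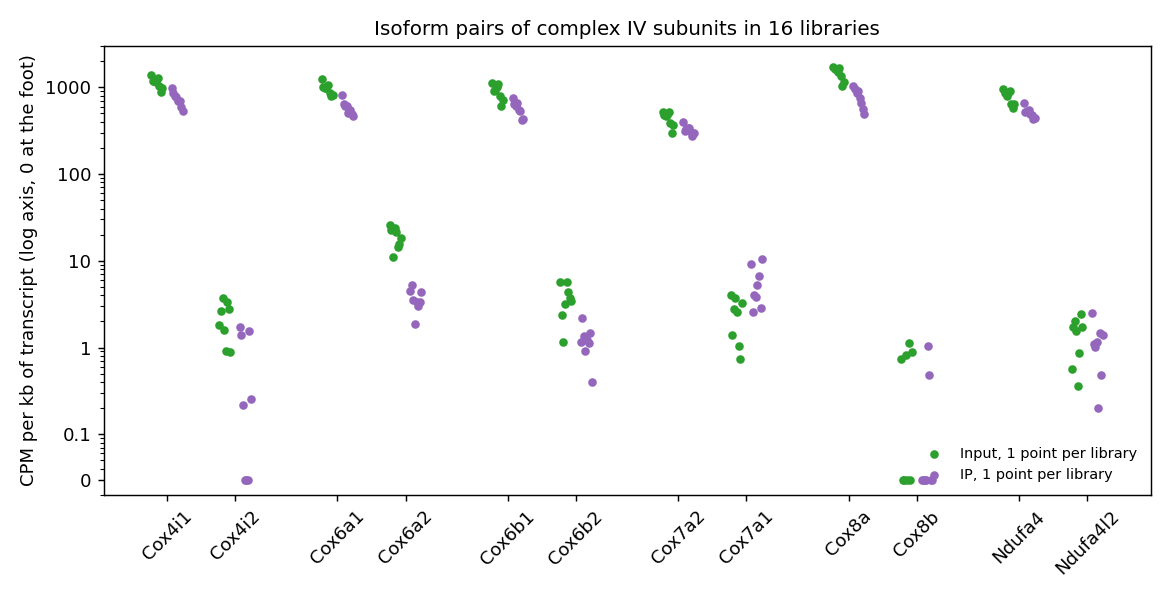
CPM per kilobase of transcript (y axis, log scale with 0 at the foot) for 6 isoform pairs of complex IV subunits, 1 point per library, with Input in green and IP in purple. The first gene of each pair lies far above its paralog in every library, while Cox6a2 has the highest mean of the paralogs in Input (19.1) and Cox7a1 in IP (5.59, with 3.65 for Cox6a2).

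Cox6a2 was the paralog with the most counts and the member with the lowest IP to Input ratio. Its CPM in wild-type Input were 15.3 (wt734), 7.54 (wt736), 16.1 (wt785), 10.6 (wtBT13) and 12.5 (wtBT14), and in IP 3.58, 2.40, 1.28, 2.26 and 2.98. The groups did not overlap. The log2 change was -2.26 (SE 0.24, adjusted p = 8.25e-08), or 20.9% of Input, from 215 counts in Input and 68 in IP. Heterozygous Input held 17.8, 14.6 and 9.79 CPM and IP 3.03, 2.25 and 2.07, a change of -2.50. The inhibitory neuron marker Pvalb moved alongside it, with 125.7 ± 20.8 CPM in wild-type Input and 14.7 ± 4.68 in IP (SD, n = 5), a log2 change of -3.10, and its part in the Cox6a2 result was not tested.

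Cox7a1, the muscle isoform of the Cox7a subunit, lay on the other side. Its wild-type CPM were 0.545, 1.08, 1.46, 0.286 and 1.28 in Input and 1.02, 1.60, 1.5, 1.13 and 4.10 in IP, from 16 and 50 counts in all. Each of the 8 animals was higher in IP. The log2 change was 0.94 (SE 0.45, adjusted p = 0.0828) in wild type and 1.39 (SE 0.54, adjusted p = 0.0413) in heterozygotes, the latter called in 7 of 14 alternatives. Its widely expressed counterpart Cox7a2 was called lower in both genotypes, at -0.42 and -0.46.

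In complex V, the ATP synthase, 15 of 17 members were called lower in wild type and 14 in heterozygotes, with medians of -0.39 and -0.49. Atp5b codes for the catalytic beta subunit, Atp5a1 for the alpha subunit beside it and Atp5c1 for the gamma subunit that turns between them. Their wild-type log2 changes were -0.53 (SE 0.12, edgeR adjusted p = 0.00056), -0.37 (SE 0.10, adjusted p = 0.00356) and -0.67 (SE 0.09, adjusted p = 1.97e-06). Atp5b held 2029.5 (wt734), 2130.3 (wt736), 2064.7 (wt785), 1772.5 (wtBT13) and 2083.2 CPM (wtBT14) in Input and 1835.6, 1455.3, 1470.5, 1332.1 and 998.0 in IP. Each animal was lower in IP, but the IP library of wt734 lay above the Input library of wtBT13. The 3 genes for subunit c, which forms the rotor ring, differed in size, with Atp5g3 at -0.67, Atp5g1 at -0.37 and Atp5g2 at -0.28. They code for the same mature protein. Atp5g1 and Atp5g2 share 69% and 100% of their transcripts with other genes, all of them pseudogenes, so their reads may have been split. For Atp5g3 no such stretch was found.

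Atp5j, a promoter of which is printed above, had the lowest change of complex V. Its wild-type Input held 471.4, 444.3, 488.3, 334.2 and 398.7 CPM and its IP 244.7, 234.5, 230.6, 184.6 and 205.7. All IP values lay below all Input values. The log2 change was -0.95 (SE 0.08, adjusted p = 6.45e-09) in wild type and -1.03 in heterozygotes. Its exons overlap 397 bases of Gabpa on the opposite strand, and Gabpa, which codes for the ETS factor named above, had a log2 change of -0.74 (adjusted p = 0.00274), so without strand their reads in the overlap cannot be told apart. Atp5s, a coupling factor of the enzyme, and Atp5j2, subunit f, were the members of complex V nearest to 0 (-0.03 and -0.14, not called).

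The members differ in transcript length, and the shorter ones lay lower. Across the 79 tested members, Spearman's rho between transcript length and the wild-type log2 change was 0.36, and across 12726 other protein-coding genes in the same libraries it was 0.13. Genes are not independent replicates, and all of these share libraries and scaling. Below 700 bases, 31 of 35 members were called lower with a median of -0.42, where 258 other genes of that length had a median of -0.14 and 39.5% called lower. From 1000 to 1500 bases, 9 of 14 members were called lower with a median of -0.32, against 0.06 and 26.6% for 1213 other genes. The longest members, at 2500 bases and more, were Ndufs1, Sdha and Sdhc, with 1 of 3 called lower. Heterozygotes gave rho values of 0.30 and 0.11. In every length bin of both genotypes the members' median lay below that of the other genes.

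**Figure D4:**
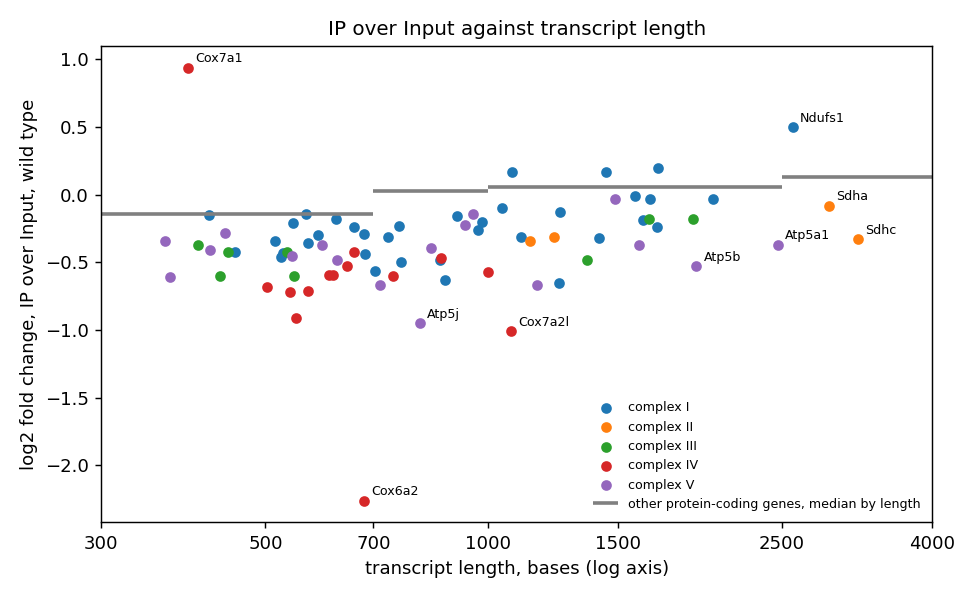
Log2 fold change of IP over Input in wild type (y axis) against transcript length in bases (x axis, log scale) for each tested member, coloured by complex, with grey bars at the median of other protein-coding genes in each length bin. Most members lie below the grey bars, and Cox7a1, Ndufs1 and Cox6a2 lie farthest from the rest.

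Counting could blur some members. A stretch of at least 50 bases at 97% identity or more with another gene was found in 33 member transcripts and covered more than 50% of the transcript in 11 (Atp5f1, Atp5g1, Atp5g2, Atp5h, Atp5l, Atp5o, Cox7c, Ndufb2, Ndufs3, Ndufs5 and Uqcrb), whose values are therefore uncertain. Of the 68 other tested members, 49 were called lower in wild type. The exons of 30 members overlap those of another gene, from which unstranded reads cannot be told apart.

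Other gene groups of the same pathway and organelle set the members in context. Over all genes tested, 28.1% were called higher and 25.2% lower in wild type, and 22.2% and 21.7% in heterozygotes. The 13 subunits encoded on mitochondrial DNA were called lower in IP in 13 of 13 cases in both genotypes, with medians of -4.60 in wild type and -3.79 in heterozygotes. They took 0.79% to 1.40% of counts in wild-type Input and 0.0468% to 0.0978% in wild-type IP, while het729 had 0.315% in IP and the other 2 heterozygotes 0.0457% and 0.0528%. Of 45 tested factors that assemble the complexes without staying in them, 22 were called higher and 5 lower in wild type, with a median of 0.23. Their extremes were Coa5 at -1.48 and Bcs1l, which inserts the Rieske protein into complex III, at 0.80. The mitochondrial ribosome had 34 of 76 members called higher and 4 lower, with a median of 0.17.

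Cytosolic ribosomal proteins, another family of short and abundant mRNAs, had 54 of 77 called lower and 1 higher in wild type, with a median of -0.45. Of 17 electron carriers and coenzyme Q enzymes, 9 were called higher and 3 lower, and the lowest was Cycs, cytochrome c, at -0.75 (SE 0.07, adjusted p = 3.67e-08). Among 10 inner and outer membrane carriers and channels, 5 were called lower and 1 higher, led by the adenine nucleotide translocator Slc25a4 at -0.77. The tricarboxylic acid cycle had 4 of 13 called higher and 2 lower (median -0.05), with Fh1 at 0.39 and Mdh2 at -0.48. Genes of pyruvate entry had 3 of 12 higher and 4 lower, from Mpc1, a pyruvate carrier subunit, at -0.88 to Pcx, pyruvate carboxylase, at 1.04. Protein import had 5 of 21 higher and 6 lower, and 13 regulators of mitochondrial gene expression had 5 higher and 1 lower, the latter being Gabpa. Protein import and pyruvate entry lay near the shares of all genes in wild type, 28.1% called higher and 25.2% lower. No difference between these lists was tested.

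The second comparison asked whether the Foxp2 deletion went with a change in the members. In Input no member was called, and no gene of 13870 was (0% called). All 78 members tested had an estimate above 0, from 0.00 for Ndufb2 to 0.29 for Cox6b1, with a median log2 difference of 0.18, or 1.13-fold, where that of all genes was 0.01. Over all genes, 7112 of 13870 estimates lay above 0. At an unadjusted p below 0.05, 12 members were higher in heterozygotes and none lower, beside 3.27% of all genes higher at that level. That count depended on single animals, with 2 members (and 1.25% of all genes) without het786, 4 (2.39%) without wtBT14, 7 (2.61%) without wtBT13 and 33 (3.36%) without hetBT13. Scaled by library totals it was 3, beside 1.11%. Of the 12 members found with all 8 animals, 6 were complex V (Atp5a1, Atp5b, Atp5c1, Atp5d, Atp5g1, Atp5o), 4 complex I (Ndufa2, Ndufa11, Ndufs7, Ndufv1) and 2 complex III (Uqcrc2, Uqcrfs1). Their edgeR adjusted p values ran from 0.634 to 0.695, and DESeq2 called no gene.

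Atp5b had the smallest p among the members. Heterozygous Input held 2278.9 (het729), 2515.2 (het786) and 2430.3 CPM (hetBT13), against 1772.5 to 2130.3 in the 5 wild-type libraries listed above. Each heterozygote lay above each wild type. The log2 difference was 0.26 (SE 0.08, unadjusted p = 0.00343, edgeR adjusted p = 0.634). Atp5a1 held 1333.6, 1486.0 and 1564.9 CPM in the heterozygotes and 1174.9 (wt734), 1235.6 (wt736), 1297.9 (wt785), 1244.8 (wtBT13) and 1265.5 (wtBT14) in wild type, again without overlap, with a difference of 0.23 (adjusted p = 0.634). Groups that did not overlap, with the heterozygotes higher, were found for 9 members (Atp5a1, Atp5b, Atp5c1, Atp5d, Atp5f1, Atp5g1, Cox7a2l, Ndufs3, Ndufs7) and for 2.55% of all genes.

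The members' level in Input also moved with the form of the animal's name. Within number-named animals (2 heterozygotes, 3 wild type) the members' median was 0.16 with 78 of 78 higher in heterozygotes, and within BT-named animals (1 and 2) it was 0.12 with 69 of 78 higher. The medians of all genes were 0.01 within number-named and -0.01 within BT-named animals. Counting only animals of the same form of name, each heterozygote lay above each wild type for 42 of 78 members and for 7.01% of all genes. With the form of name as a covariate, 39 members had an unadjusted p below 0.05, all higher in heterozygotes, beside 6.01% of all genes higher at that level in the same fit. None was called, and the median was 0.16. The median was 0.11 without wtBT13, 0.12 without het729 or het786, 0.27 without hetBT13, and 0.17 with het730 and hetBT14 included. Scaled by library totals it was 0.12, with 75 of 78 above 0, beside -0.06 for all genes. The labels do not say what the form of name stands for.

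Other families had estimates on the same side in Input. Cytosolic ribosomal proteins had 76 of 77 estimates above 0 with a median of 0.21, and the 10 carriers and channels had 10 of 10 (median 0.14), led by Vdac1 at 0.25. Tricarboxylic acid cycle genes had 12 of 13 above 0 (median 0.14), whereas assembly factors had 25 of 45 (median 0.02) and the subunits encoded on mitochondrial DNA 3 of 13 (median -0.03). None of these genes was called. Among cell type markers, 4 of 5 astrocyte markers had estimates below 0 (median -0.41), their summed level being 416.2 to 493.7 CPM in heterozygotes and 454.6 to 752.2 in wild type. Blood markers summed to 216.8 to 1438.5 CPM in heterozygotes (median 230.5) and 143.8 to 290.4 in wild type (median 225.0). The high heterozygous value came from a single library. None of these markers was called either, and their part in the members' values was not tested.

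In IP, 0 of 79 members and 0% of 14755 genes were called, and 0 members had an unadjusted p below 0.05. The median of the members was 0.12, where that of all genes was 0.00, and 72 of 79 lay above 0. Over all genes, 7481 of 14755 estimates did. Without het729 the members' median was 0.02. In that animal's IP library the members took 2.30% of counts, the highest of the 8 IP libraries, and mitochondrial transcripts were also highest there. Each heterozygote lay above each wild type for 2 members, Ndufa6 and Ndufv3, beside 1.73% of all genes. Counting only animals of the same form of name, the same held for 5 members, beside 3.77%. Within BT-named animals the members' median was 0.18 and within number-named animals 0.07, beside 0.01 and -0.00 for all genes. Atp5b held 1739.3, 1340.2 and 1506.0 CPM in the heterozygotes, inside the wild-type range of 998.0 to 1835.6. DESeq2 called 1 gene lower in IP, which was not a member.

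**Figure D5:**
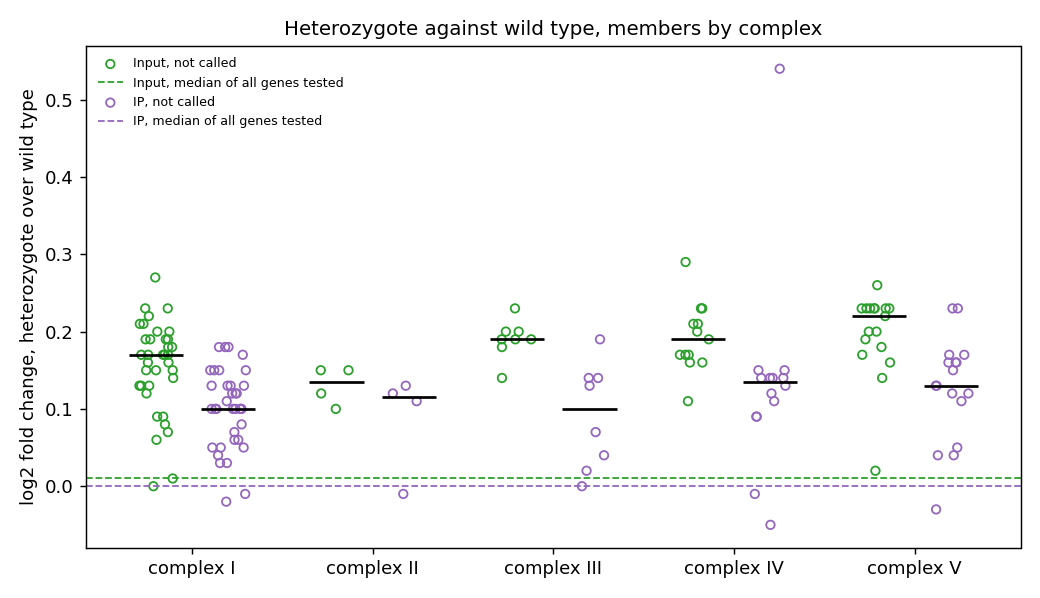
Log2 fold change of heterozygote over wild type (y axis) for each tested member by complex, in Input (green) and IP (purple), with black bars at complex medians and dashed lines at the medians of all genes tested. All points are open because no member was called, complex V has the highest Input median (0.22), and Cox7a1 is the highest IP point (0.54).

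Whether the genotype difference itself differed between IP and Input was tested in the fit of 16 libraries. No member was called by edgeR or DESeq2, 0% of 15145 genes were called by edgeR, and the smallest unadjusted p of a member was 0.102 (Ndufs1). The members' median was -0.06, where that of all genes was -0.01, with 64 of 79 below 0. It was 0.06 without het786 and -0.12 without hetBT13, so its sign rested on 1 animal.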

How the data were processed

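Cortical RNA of 8 animals, an IP and an Input library each, was compared. The values are raw counts of reads per Ensembl gene as the authors deposited them; the submitters' processing notes name HTSeq and mm10, and the aligner, strand setting and annotation are not given in the sources used here. Per the labels' protocols the libraries were Smart-seq2, a method without strand or molecule tags, so real errors exceed counting error. Names, transcripts and coordinates came from GENCODE M21 (GRCm38). In edgeR 4.0.16 (R 4.3.3), filterByExpr removed low genes (count minimum of 10), TMM set the scale, and glmQLFTest with robust dispersion gave p-values, adjusted by Benjamini-Hochberg over all genes with a threshold of 0.05. IP against Input and the difference between genotypes came from a single fit of the 16 libraries that blocks on animal, because the protocol takes both libraries of an animal from 1 lysate. Genotype was tested per fraction, 3 against 5 animals. SE is the log2 fold change divided by the square root of F. CPM use the TMM scale of the 16 libraries. A member's length is that of its shortest well supported principal transcript. Alternatives were other scalings, DESeq2 1.42.0, no filter, each animal left out, no block, and the form of name. Members, gene lists and named genes (core subunits, isoform pairs, the extremes of each complex and the calls of smallest p) were chosen with earlier results of these data known. The result of 1 gene is not reported here. The scripts' tests were checked on simulated data.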

Additional observations from a re-analysis of the deposited data

Results flagged for a closer look

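Of 38 groups of 5 wild-type values examined, 2 held a value far from the other 4 by Dixon's criterion, which chance alone gives in about 1 group in 20. Cox7a1 stood at 4.10 CPM in the IP library of wtBT14, above 1.02 to 1.60 in the other 4. Atp5b stood at 1772.5 CPM in the Input library of wtBT13, below 2029.5 to 2130.3 in the other 4.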

How the results depend on the processing

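Scaling by library totals alone changed the counts most: 32 members were called lower in wild type (59 with TMM) with a median of -0.14, and 30 in heterozygotes (57 with TMM) with a median of -0.13. It also moved the median over members to -0.02 for the difference of the genotype effect and to 0.12 for genotype in Input. Of all 15145 genes, 2407 were then called lower in wild type (3813 with TMM) and 1918 in heterozygotes (3285 with TMM). Over the other scalings, DESeq2 and the fit with no filter, 55 to 69 members were called lower in wild type and 52 to 68 in heterozygotes. The same fits called 3504 to 4600 and 2918 to 3893 of all genes lower. Leaving out 1 animal at a time gave 54 to 63 calls in wild type and 38 to 59 in heterozygotes, with medians of -0.38 to -0.36 and -0.48 to -0.30. Of all genes, 3443 to 3888 and 2384 to 3392 were called lower in those fits. In the same way the median ran from -0.12 to 0.06 for the difference of the genotype effect, from 0.02 to 0.17 for genotype in IP and from 0.11 to 0.27 for genotype in Input. Within number-named animals the IP median was 0.07. Where the sign of the difference turned, the change came from leaving out het786, and the cause was not tested.

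The pairing by animal came from the protocol. With no replicate block, 56 members were called lower in wild type and 54 in heterozygotes, so the block moved neither count by 1.5 times. No paired analysis was possible for genotype because the groups share a single number, BT13. No filter gave 28 genes called between genotypes in Input (5 higher, 23 lower), none of them a member. Low counts left 5 members untested, and at these depths the complex IV paralogs rest on few counts.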
